A study of Ovis aries with 8 samples.

Results

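The genes described here encode the extracellular matrix of the perirenal adipose tissue, a white fat depot next to the kidney: collagens, laminins and the glycoproteins, proteoglycans, cross-linking proteins, proteases and inhibitors that build or remodel the matrix. They were chosen by symbol alone, as every probe set of the array whose single gene symbol was a collagen chain, a laminin chain or one of 22 other named matrix genes. The array's annotation held 50 such genes of 9155 genes with a symbol, on 97 of 24016 bovine probe sets. Each gene was represented by its brightest probe set, judged by the mean of all 8 arrays, and 27 of the 50 genes had further probe sets, 47 in all. No dim probe set was left out, so all 50 genes were measured, and COL4A2 and COL6A3 were not analysed here because no probe set carried their symbol alone.

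Every lamb was a male of 12 weeks from a Dorset/Suffolk/Rambouillet cross-bred flock. The 4 NmatCpat lambs (genotype label Callipyge) carried the Callipyge mutation on the chromosome inherited from the sire, the arrangement that gives the muscular and lean Callipyge phenotype, and the 4 NmatNpat lambs (genotype label wildtype) did not carry it. The mutation arose naturally and is present in the whole animal, so a difference in fat need not start in fat cells. Total RNA from each lamb's fat went on a Bovine Genome array of its own, whose probes follow cattle sequence, so a sheep transcript that differs under the probes can read low.

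In fat tissue each adipocyte sits in a thin basement membrane of type IV collagen and laminin, held together by nidogen. Between the cells lies an interstitial matrix made mainly by fibroblasts: fibrils of type I and III collagen with type V in their core, beaded filaments of type VI collagen, and elastic fibres of elastin on a fibrillin scaffold. Small leucine-rich proteoglycans such as decorin bind the fibrils, lysyl oxidase cross-links collagen and elastin, and matrix metalloproteinases and their tissue inhibitors set the rate of turnover.

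Values are log2 intensities, quantile-normalized over the 8 arrays, and a difference is always NmatCpat minus NmatNpat on that scale. Array medians before normalization lay between 65.3 and 72.6 intensity units. The fat label fitted the markers measured: ADIPOQ, the adipocyte hormone adiponectin, read 12.81 to 13.29, and the 9 kidney or adrenal genes averaged 4.28 to 4.93. The arrays of NmatNpat animal 1, with nerve transcripts, and NmatCpat animal 4, with skeletal muscle transcripts, stood apart from the rest. The arrays of NmatNpat animal 4 and NmatCpat animal 1 did so too, with mesothelium or epithelium transcripts. The mean of 11 nerve genes was 10.24 in NmatNpat animal 1 and no higher than 6.26 in the other lambs, and that of 11 skeletal muscle genes was 7.47 in NmatCpat animal 4 and no higher than 6.34 in the others. The mean of 9 mesothelium or epithelium genes was 7.65 in NmatNpat animal 4, 7.07 in NmatCpat animal 1 and no higher than 5.52 in the others.

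No matrix gene passed a threshold between the genotypes. A gene counted as called when its P from limma was no higher than 0.05 and its change was more than 1.5-fold, and 0 of 50 genes were called higher and 0 lower in NmatCpat lambs, where 1.39% and 1.52% of all genes were called. At P no higher than 0.05 without the fold, the count was also 0 of 50, where 347 of 9155 genes passed. A linear model without moderated variances called 0 members as well, where 2.03% of all genes were called. At an adjusted p under 0.05 limma called 0 members and 0% of all genes, and the smallest adjusted p of a member was 0.983. In every member the genotypes overlapped, while 2.84% of all genes had the 4 lambs of a genotype above the other 4. The difference was above 0 in 28 members and below 0 in 22, with a median of 0.038 against 0.0046 over all genes. It ran from -1.41 for COL18A1 to 1.16 for COL9A1, both of which were dim.

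The arrays bounded the difference of some members more closely than others. The 95% interval excluded a 2-fold difference in either direction for 25 of 50 members, against 5755 of 9155 genes. The median distance from a difference to the end of its interval was 0.82 for members and 0.59 for all genes. The intervals were narrowest for LAMC1 (-0.45 to 0.32), COL15A1 (-0.43 to 0.33) and COL3A1 (-0.42 to 0.38) among the members named here. On the next brightest probe set of these genes they were wider, at -0.56 to 0.65, -0.25 to 0.77 and -0.60 to 0.70. Brightest probe sets gave wide intervals for COL18A1 (-3.30 to 0.49), ELN (-1.01 to 1.56) and COL1A1 (-0.98 to 1.12). A 2-fold difference lay within each of these 3 wide intervals. In bulk tissue, fewer cells of a type and less RNA per cell cannot be told apart.

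**Figure D1:**
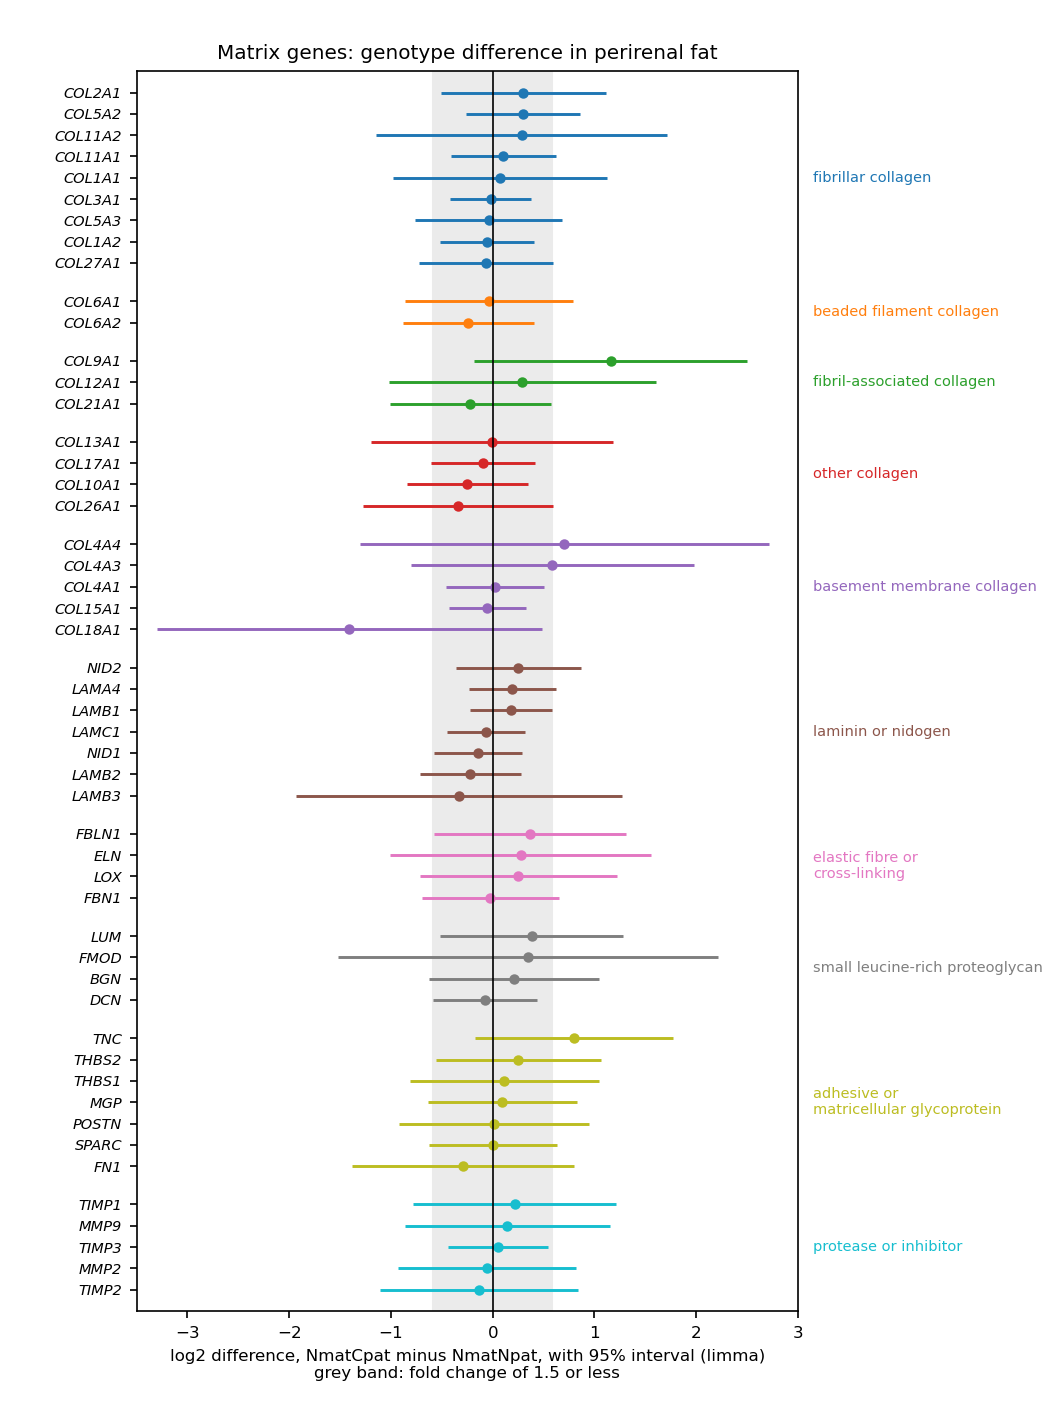
Log2 difference, NmatCpat minus NmatNpat, of the 50 matrix genes (points) with 95% intervals from limma (lines), grouped by role; the grey band spans a fold change of 1.5 or less. All 50 intervals cross 0, and the largest differences, -1.41 for COL18A1 and 1.16 for COL9A1, have wide intervals.

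The 9 fibrillar collagens, which form the load-bearing fibrils, had a median difference of 0.073, 5 above 0 and 4 below. COL1A1, the alpha 1 chain of type I collagen, read 11.88, 11.26, 13.13 and 12.28 in NmatCpat animals 1 to 4 and 11.49, 11.91, 12.94 and 11.91 in NmatNpat animals 1 to 4. Animal 3 stood highest in both genotypes, and the remaining lambs overlapped. The means were 12.14 ± 0.78 (SD, n = 4) and 12.06 ± 0.62 (SD, n = 4), which differed by 0.073 (standard error 0.45).

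On their brightest probe sets, near the top of the scale, the partner chain COL1A2 and the type III chain COL3A1 had a smaller SD within a genotype, 0.24 and 0.17 against 0.70 for COL1A1. COL1A2 read 13.09, 12.94, 13.51 and 13.33 in the NmatCpat lambs and 13.03, 13.21, 13.58 and 13.27 in the NmatNpat lambs, a difference of -0.055 (standard error 0.20). COL3A1 read 13.73, 13.62, 13.98 and 13.96 against 13.73, 13.71, 14.09 and 13.85, a difference of -0.020 (standard error 0.17). Animal 3 was again the highest of each genotype for both genes. A slightly dimmer probe set of each gene, chosen after the values were seen, varied more. Its SD within a genotype was 0.69 for COL1A2 and 0.40 for COL3A1, and its differences were 0.11 and 0.049. COL5A2, a chain of the type V collagen that nucleates fibrils, had the smallest p of the role: 11.43 ± 0.23 (SD, n = 4) against 11.14 ± 0.40 (SD, n = 4), so that it differed by 0.30 (limma, adjusted p = 0.98). COL5A2 and COL3A1 are neighbouring genes in the sheep assembly ARS-UI_Ramb_v3.0.

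Of the beaded filament, fibril-associated and other collagens, the differences of 7 were below 0 and those of COL9A1 and COL12A1 above. COL6A1 and COL6A2, neighbours in the same assembly, encode chains of the beaded filaments that connect cells to the fibrils. COL6A1 read 8.24, 8.11, 9.37 and 8.75 in the NmatCpat lambs and 8.14, 8.57, 9.34 and 8.56 in the NmatNpat lambs, and its difference was -0.038 (standard error 0.36). For COL6A2 the difference was -0.24 (standard error 0.28). In both genes animal 3 was the highest of each genotype. COL9A1, a chain of the fibril-associated type IX collagen best known from cartilage, had the largest positive difference. It read 4.85, 4.51, 5.05 and 4.65 in the NmatCpat lambs and 3.14, 3.47, 2.42 and 5.40 in the NmatNpat lambs, a difference of 1.16 (limma, adjusted p = 0.98). NmatNpat animal 4 alone lay above every NmatCpat lamb, and without it the difference was 1.76 and COL9A1 was called (limma, adjusted p = 0.40), in a fit that called 3.29% of all genes. That lamb was also the highest for mesothelium or epithelium markers, whose part in the COL9A1 reading was not tested. Of the 4 collagens of other types, COL10A1, the hypertrophic cartilage collagen, had the smallest p, with a difference of -0.25 (standard error 0.26).

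Elastic fibre and cross-linking genes had a median SD within a genotype of 0.63, against 0.53 over all members. ELN, which encodes elastin, read 8.49, 8.68, 9.98 and 9.30 in the NmatCpat lambs and 8.51, 7.78, 10.25 and 8.81 in the NmatNpat lambs. Animal 3 was the highest of each genotype, and the NmatNpat lambs reached both below and above the NmatCpat lambs. The means were 9.11 ± 0.67 (SD, n = 4) and 8.84 ± 1.04 (SD, n = 4), which differed by 0.28 (standard error 0.56). LOX, lysyl oxidase, read 6.02, 6.33, 7.16 and 6.45 against 5.37, 6.37, 7.22 and 5.99, a difference of 0.25 (standard error 0.42). FBN1, the fibrillin scaffold, differed by -0.023 (standard error 0.29). FBLN1, a fibulin of elastic fibres and basement membranes, had the smallest p of the role with a difference of 0.37 (standard error 0.41). LOX and FBN1 shared the pattern of ELN, with animal 3 highest in each genotype, while in NmatNpat lambs FBLN1 was highest in animal 4.

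The small leucine-rich proteoglycans coat collagen fibrils and control their width. LUM, lumican, read 9.11, 8.90, 10.05 and 8.89 in the NmatCpat lambs and 8.47, 8.40, 9.77 and 8.79 in the NmatNpat lambs. NmatNpat animal 3 lay above 3 of the NmatCpat lambs, and the other 3 NmatNpat lambs lay below all 4 of them. The difference was 0.38 (standard error 0.39), and without NmatNpat animal 3 it was 0.69, with no overlap but no call (limma, adjusted p = 0.96). In that fit 5.88% of all genes did not overlap. DCN, decorin, which neighbours LUM in the assembly, differed by -0.072 (standard error 0.22). BGN, biglycan, differed by 0.21 (standard error 0.36). FMOD, fibromodulin, named after its values were seen, read 10.10 in NmatCpat animal 3 and 6.38 to 7.95 in the other lambs, and its SD within a genotype was 1.29.

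**Figure D2:**
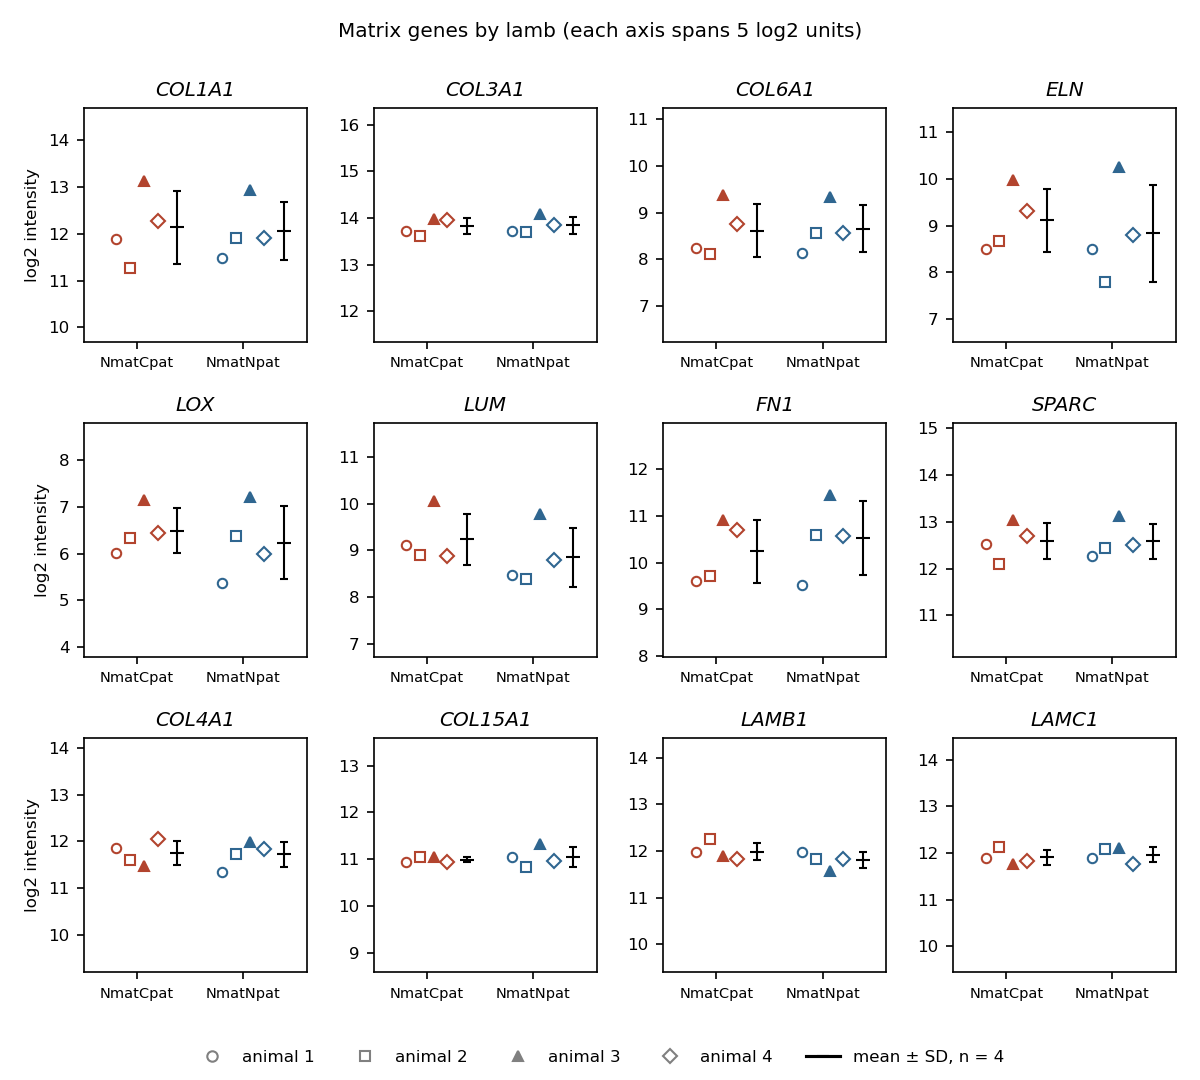
Log2 intensity of 12 matrix genes in each lamb (symbols, animal 3 filled) with the mean ± SD of each genotype (n = 4); every axis spans 5 log2 units. COL1A1, COL6A1, ELN, LOX, LUM, FN1 and SPARC are highest in animal 3 of each genotype, while LAMB1 and LAMC1 stay within narrow ranges.

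Adhesive and matricellular glycoproteins link cells to the matrix or modulate that contact. FN1, fibronectin, read 9.61, 9.72, 10.93 and 10.71 in the NmatCpat lambs and 9.52, 10.59, 11.45 and 10.57 in the NmatNpat lambs, a difference of -0.29 (standard error 0.47). SPARC, a collagen-binding protein that is abundant in adipose tissue, read 12.52, 12.10, 13.03 and 12.69 against 12.26, 12.45, 13.12 and 12.50. The genotype means were 12.59 and 12.58, a difference of 0.0031 (standard error 0.27). In both genes animal 3 was the highest lamb of each genotype and the remaining lambs overlapped.

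TNC, tenascin-C, a glycoprotein of growing and injured tissue, had the smallest p of the role. It read 7.62, 7.26, 6.57 and 7.28 in the NmatCpat lambs and 6.03, 5.48, 6.67 and 7.35 in the NmatNpat lambs, a difference of 0.80 (limma, adjusted p = 0.98). The order of the lambs was unlike that of SPARC: NmatCpat animal 3 was the lowest of its genotype, and NmatNpat animals 3 and 4 lay within the range of NmatCpat. Without NmatNpat animal 4 the difference was 1.12 and TNC was called (limma, adjusted p = 0.97). TNC was highest in NmatCpat animal 1 and NmatNpat animal 4, the lambs with the most mesothelium or epithelium transcripts. The mean of 9 smooth muscle or pericyte markers was also highest in them, at 9.97 and 9.99 against 8.42 to 9.54 in the others. Without both lambs the difference was 0.97 (limma, adjusted p = 0.96) for TNC and 1.73 (limma, adjusted p = 0.64) for COL9A1, the 2 members called in that fit, which called 3.44% of all genes. Leaving out lambs does not measure cells, and the part of those cells in the readings was not tested. MGP, which inhibits calcification, differed by 0.094 (standard error 0.32), POSTN, periostin, by 0.013 (standard error 0.40) and THBS1, thrombospondin 1, by 0.11 (standard error 0.40). On its brightest probe set THBS1 was low in NmatNpat animal 1, at 9.82, against 10.76 to 11.60 in the other lambs. Some of its 5 further probe sets also read lowest in that lamb, such as 8.55 against 9.16 to 9.77. Others did not, such as 9.52 against 9.43 to 9.69. That lamb's array carried the nerve transcripts, whose part in the readings was not tested.

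The turnover genes overlapped as closely. MMP2, the gelatinase of mesenchymal cells, read 7.63, 8.20, 8.91 and 7.72 in the NmatCpat lambs and 7.59, 8.0, 8.92 and 8.19 in the NmatNpat lambs, a difference of -0.057 (standard error 0.38). Animal 3 was the highest of each genotype. MMP9, the gelatinase of leukocytes, was dim in every lamb, at 1.66 to 3.46, and differed by 0.14 (standard error 0.44). TIMP1, a secreted inhibitor of both, had the smallest p of the role, with 9.44 ± 0.84 (SD, n = 4) against 9.22 ± 0.42 (SD, n = 4) and a difference of 0.22 (standard error 0.43).

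The brightest probe sets of the basement membrane collagens COL4A1 and COL15A1 were steady, with an SD within a genotype of 0.26 and 0.16. COL4A1, a chain of the type IV network, read 11.85, 11.60, 11.48 and 12.05 in the NmatCpat lambs and 11.36, 11.73, 11.98 and 11.83 in the NmatNpat lambs, a difference of 0.023 (standard error 0.21). COL15A1, a collagen at the border of basement membrane and interstitium, read 10.94, 11.04, 11.06 and 10.94 against 11.05, 10.84, 11.33 and 10.95, a difference of -0.051 (standard error 0.16). Neither gene separated the genotypes, and on the brightest COL4A1 probe set NmatCpat animal 3 was the lowest of its genotype. Another COL4A1 probe set, nearly as bright and chosen after the values were seen, varied more. Its SD within a genotype was 0.51, its difference was -0.21, and NmatCpat animal 1 was the lowest of its genotype. The other COL15A1 probe set had an SD within a genotype of 0.29 and a difference of 0.26. COL18A1, the gene of the collagen that yields endostatin, had the largest negative difference on a dim probe set. It read 2.69, 1.38, 5.14 and 1.26 in the NmatCpat lambs and 4.58, 3.74, 3.61 and 4.17 in the NmatNpat lambs, a difference of -1.41 (standard error 0.82; limma, adjusted p = 0.98). NmatCpat animal 3 alone lay above the NmatNpat lambs, and without it the difference was -2.25 and COL18A1 was called (limma, adjusted p = 0.64), in a fit that called 3.13% of all genes.

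The laminin and nidogen genes were the steadiest group, with a median SD within a genotype of 0.22 against 0.53 over all members. LAMC1, the gamma 1 chain shared by most laminins, read 11.89, 12.13, 11.77 and 11.82 in the NmatCpat lambs and 11.89, 12.09, 12.10 and 11.77 in the NmatNpat lambs. The values interleaved, with a difference of -0.061 (standard error 0.17). LAMB1, the beta 1 chain, read 11.98, 12.25, 11.89 and 11.83 against 11.98, 11.83, 11.57 and 11.84, a difference of 0.18 (standard error 0.17). LAMA4, the alpha 4 chain found in vessels and around adipocytes, had the smallest p of the role, with a difference of 0.19 (standard error 0.18). NID1, the linker between laminin and type IV collagen, read 12.39 ± 0.08 (SD, n = 4) against 12.54 ± 0.29 (SD, n = 4), a difference of -0.15 (standard error 0.19). LAMB3, a dim chain named after its values were seen, was the exception, with 5.86 in NmatNpat animal 4 and 2.46 to 3.81 in the other lambs. Of the 7 genes, 3 differences were above 0 and 4 below.

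The members varied more between lambs of a genotype than other genes did, and much of that variation ran in the same lambs. The median SD within a genotype was 0.53 for members and 0.35 for all genes, and in the brightest 25% of probe sets it was 0.44 for 30 members and 0.23 for 3660 genes. NmatCpat animal 3 and NmatNpat animal 3 were each the highest lamb of their genotype in 31 of 50 members. Both were highest at once in 21 of 50 members (42.0%), against 647 of 9155 genes (7.07%), a pattern that was noticed after the values were seen and is given without a test. In that brightest 25% it held for 16 of 30 members (53.3%) and 300 of 3660 genes (8.20%). Over all probe sets it held for 28 of 97 of members (28.9%) and 1654 of 24016 in all (6.89%). Of the 47 further probe sets of members it held for 7, and for 4 of the 15 further ones in the brightest 25%. The labels give no link between lambs of the same number, which only name a lamb within its genotype.

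Like the 50 members themselves, the 21 genes were mostly interstitial, with 2 of 5 basement membrane collagens and 1 of 7 laminins and nidogens among them. They were COL1A1, COL1A2, COL3A1, COL5A3, COL11A1, COL6A1, COL6A2, COL21A1, ELN, FBN1, LOX, DCN, LUM, BGN, FN1, SPARC, MGP, MMP2, COL4A4, COL15A1 and NID2. Animal 3 exceeded the mean of the other 3 lambs of its genotype by a median of 0.52 in NmatCpat and 0.59 in NmatNpat over all 50 members, and by -0.018 and -0.0031 over all genes. For the 7 laminins and nidogens the medians were -0.048 and 0.21. Single genes with large excesses in both were COL1A1, with 1.32 in NmatCpat and 1.17 in NmatNpat, LUM, with 1.08 and 1.22, ELN, with 1.15 and 1.89, and MMP2, with 1.06 and 1.0. COL3A1 exceeded by 0.21 and 0.33 on its brightest probe set and by 0.65 and 0.87 on its other bright one. For COL1A2 the excesses were 0.39 and 0.41 on the brightest probe set and 1.08 and 1.20 on the other.

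**Figure D3:**
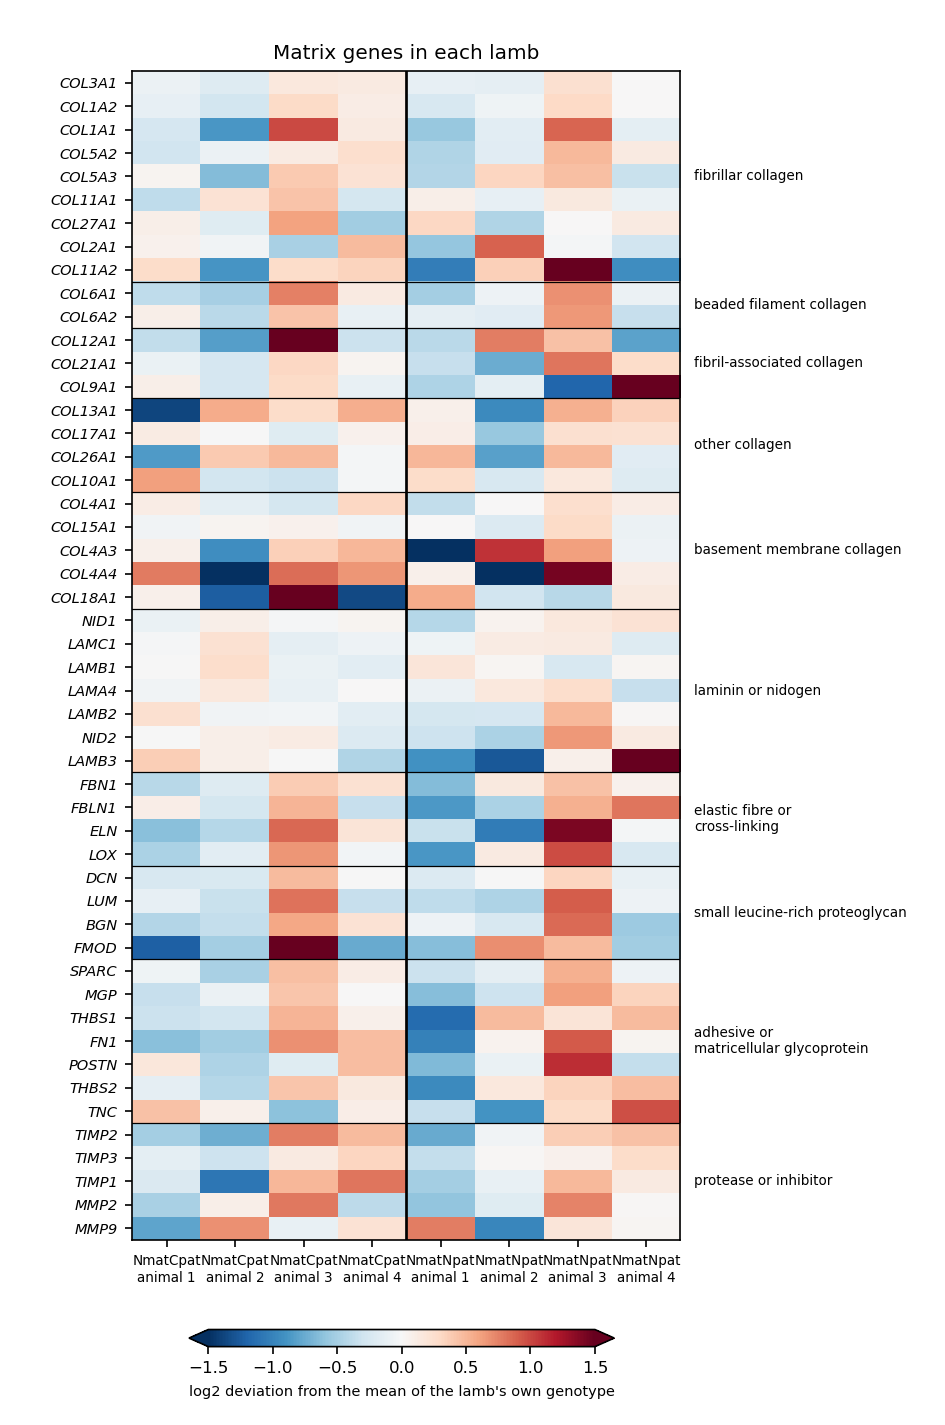
Log2 deviation of each of the 50 matrix genes (rows, grouped by role) in each lamb (columns) from the mean of the lamb's own genotype, with red above and blue below. The columns of animal 3 are red in most rows, above the mean in 37 members for NmatCpat and 46 for NmatNpat, and the rows of LAMB1 and LAMC1 are pale while that of LAMB3 is not.

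The members' mean deviation from their means over the 8 lambs was -0.12, -0.25, 0.44 and 0.078 in NmatCpat animals 1 to 4 and -0.39, -0.21, 0.41 and 0.038 in NmatNpat animals 1 to 4. NmatNpat animal 1 was the lowest lamb of its genotype in 26 of 50 members. Elastic fibre and cross-linking genes averaged 0.71 and 0.73 in the lambs numbered 3, and the proteoglycans 1.20 and 0.53, where FMOD contributed to the first. Without both lambs numbered 3, the members' median difference was 0.031, 1 member was called (COL18A1, -2.39), where 3.34% of all genes were. In that fit COL18A1 and LUM, 2 of 50 members, did not overlap, against 9.86% of all genes.

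Marker lists of other cells moved with the members in part. Of 11 fibroblast markers, 8 were highest in NmatCpat animal 3 and 8 in NmatNpat animal 3, and 6 in both. The list's mean level was 8.63 to 9.20 in the NmatCpat lambs and 8.56 to 9.32 in the NmatNpat lambs, highest in the lambs numbered 3. PI16, a marker of adventitial fibroblasts, read 8.78 and 8.79 in those lambs and 7.28 to 8.07 in the others. Within each genotype, DPP4, DPT, FAP, CD34 and MFAP5 were also highest in the lamb numbered 3. THY1, a broader marker, was 8.01 in NmatNpat animal 3, the lowest of that genotype. PDGFRA was dim, at 3.98 to 5.06, and was lowest of its genotype in NmatCpat animal 3. S100A4 was highest of its genotype in NmatCpat animal 1 and NmatNpat animal 4, PDGFRB in NmatNpat animal 1 and VIM in NmatCpat animal 4. The mean deviation of 10 macrophage markers was 0.53 and 0.56 in the lambs numbered 3, but also 0.70 in NmatCpat animal 4, and that of 11 adipocyte markers was -0.15 and -0.14. The part of the number of fibroblasts or other cells in the matrix pattern was not tested.

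The remaining lists had other orders. Endothelial markers averaged 0.0015 and 0.24 in the lambs numbered 3 and smooth muscle or pericyte markers 0.17 and -0.42. Nerve markers averaged -1.03 and 0.36 there, skeletal muscle markers 0.038 and 0.066, mesothelium or epithelium markers -0.19 and -0.54, and kidney or adrenal markers -0.0088 and -0.042. None of these lists had both lambs numbered 3 as the highest of their genotypes.

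**Figure D4:**
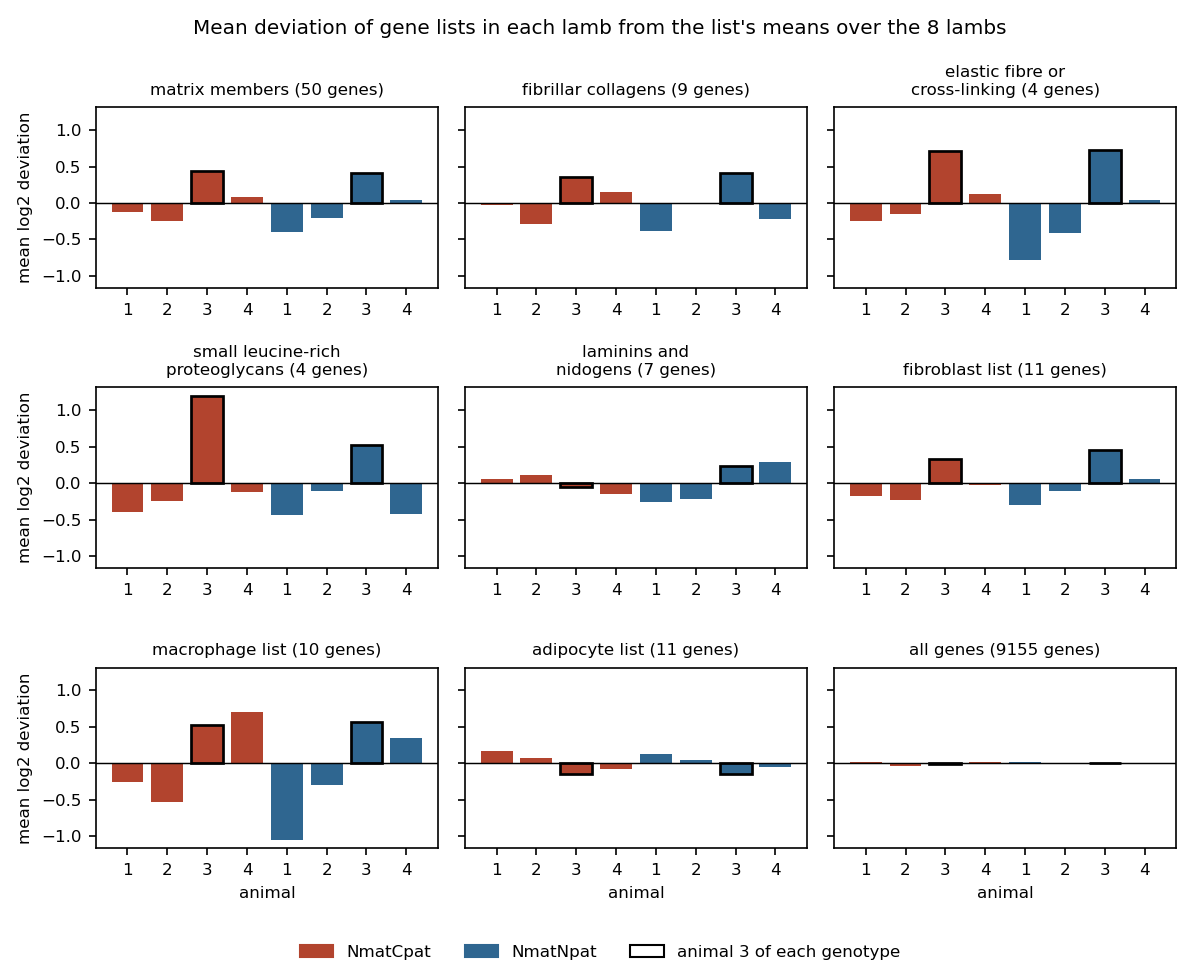
Mean log2 deviation of gene lists in each lamb (bars, animals 1 to 4 of NmatCpat and then of NmatNpat) from each gene's mean over the 8 lambs. Animal 3 of each genotype, outlined, is high for the matrix genes (0.44 and 0.41), the fibroblast list and the macrophage list. It is low for the adipocyte list and near 0 for all genes. The macrophage list is higher still in NmatCpat animal 4.

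Among all 97 probe sets of the members, 3 passed P and fold, where 3.93% of all probe sets did. All 3 were the dimmer probe sets of genes whose brightest probe set did not differ, and none separated the genotypes. On the dimmer COL1A1 probe set the lambs read 5.49, 6.16, 6.31 and 6.70 in the NmatCpat lambs and 3.60, 5.78, 5.62 and 4.12 in NmatNpat. The difference was 1.39 (standard error 0.54, limma, adjusted p = 0.98, and two-sided exact permutation test, p = 0.086), against 0.073 on the bright probe set. The dimmest LAMC1 probe set read 4.99, 3.73, 3.05 and 3.40 against 4.78, 4.49, 5.03 and 5.23, a difference of -1.09 (standard error 0.42). The other LAMC1 probe sets differed by -0.21 to 0.044. Leaving out NmatCpat animal 2, 3 or 4 or NmatNpat animal 1 or 4 ended either call, and leaving out NmatNpat animal 3 ended the second, with differences of 0.99 to 1.39 for COL1A1 and -1.12 to -0.84 for LAMC1.

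The third was a COL11A1 probe set that can bind several transcripts, and the study's own gene list names it SLC35D1. It read 4.26, 4.56, 4.87 and 3.83 in the NmatCpat lambs and 2.79, 2.07, 2.37 and 3.98 in the NmatNpat lambs, a difference of 1.58 (standard error 0.44, limma, adjusted p = 0.98, and two-sided exact permutation test, p = 0.057). Only NmatNpat animal 4 overlapped the NmatCpat lambs, and the call held with any single lamb left out. With other processing or with pairs of lambs left out, the call was not always kept, and the difference ran from 0.65 to 2.01. The other COL11A1 probe sets differed by -1.55 to 0.16, so the probe sets of this gene disagreed in sign. In the brightest 25% of probe sets, 15 further probe sets of members were measured, and 0 had P no higher than 0.05. Of the 3660 genes whose brightest probe set lay there, 84 had such a P.

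A further probe set listed as LAMC1 by the study carried no symbol in the annotation used here and so is not a member. It differed by 1.83 (standard error 0.66), was dim and passed P and fold (limma, adjusted p = 0.98), and its genotypes overlapped.

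Genes that serve the matrix were read from 5 lists: collagen synthesis and secretion, matrix receptors, TGF-beta and growth factor signals, matrix turnover, and other matrix proteins. Of their 113 measured genes, 2 were called higher and 1 lower in NmatCpat lambs, where 1.39% and 1.52% of all genes were, so the count was near the background and the 3 genes are given as a description. The median difference was 0.074. ITGA7, the integrin chain that binds laminin in muscle, read 7.54, 7.90, 7.63 and 8.21 in the NmatCpat lambs and 7.09, 5.54, 7.52 and 7.08 in the NmatNpat lambs, a difference of 1.01 (standard error 0.42, limma, adjusted p = 0.98). It was the only gene of the 113 whose genotypes did not overlap, by a margin of 7.54 against 7.52, where 2.84% of all genes did not overlap. Any gene without overlap gets the smallest p this design can give (two-sided exact permutation test, p = 0.029), so that p adds nothing to the lack of overlap. The highest ITGA7 reading was in NmatCpat animal 4, whose array carried skeletal muscle transcripts, and their part in it was not tested. The call was lost when any lamb other than NmatNpat animal 2 or 3 was left out, with differences of 0.88 to 1.11. The remaining 22 receptors had no call, and the median of the list was -0.008.

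Among 24 turnover genes, 18 differences were above 0 and the median was 0.18. PLAUR, the urokinase receptor, read 6.40, 5.87, 6.54 and 7.51 in the NmatCpat lambs and 5.32, 5.94, 3.61 and 5.61 in the NmatNpat lambs, a difference of 1.46 (standard error 0.56, limma, adjusted p = 0.98). NmatNpat animal 2 overlapped NmatCpat animal 2, and NmatNpat animal 3 was far below the rest. Without NmatCpat animal 1, 3 or 4 the call was lost, at differences of 1.52, 1.47 and 1.15. P4HA3, a catalytic subunit of the prolyl 4-hydroxylase that stabilizes the collagen helix, was called lower. It read 3.91, 4.91, 3.93 and 5.29 in the NmatCpat lambs and 5.88, 6.19, 4.41 and 6.82 in the NmatNpat lambs, a difference of -1.32 (standard error 0.56, limma, adjusted p = 0.98). NmatNpat animal 3 lay within the NmatCpat range, and the call held only without that lamb or NmatCpat animal 4, with differences of -1.45 to -0.98 when any other lamb was left out. Over the 23 genes of collagen synthesis, 12 differences were above 0 and 11 below, with a median of 0.0008.

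**Figure D5:**
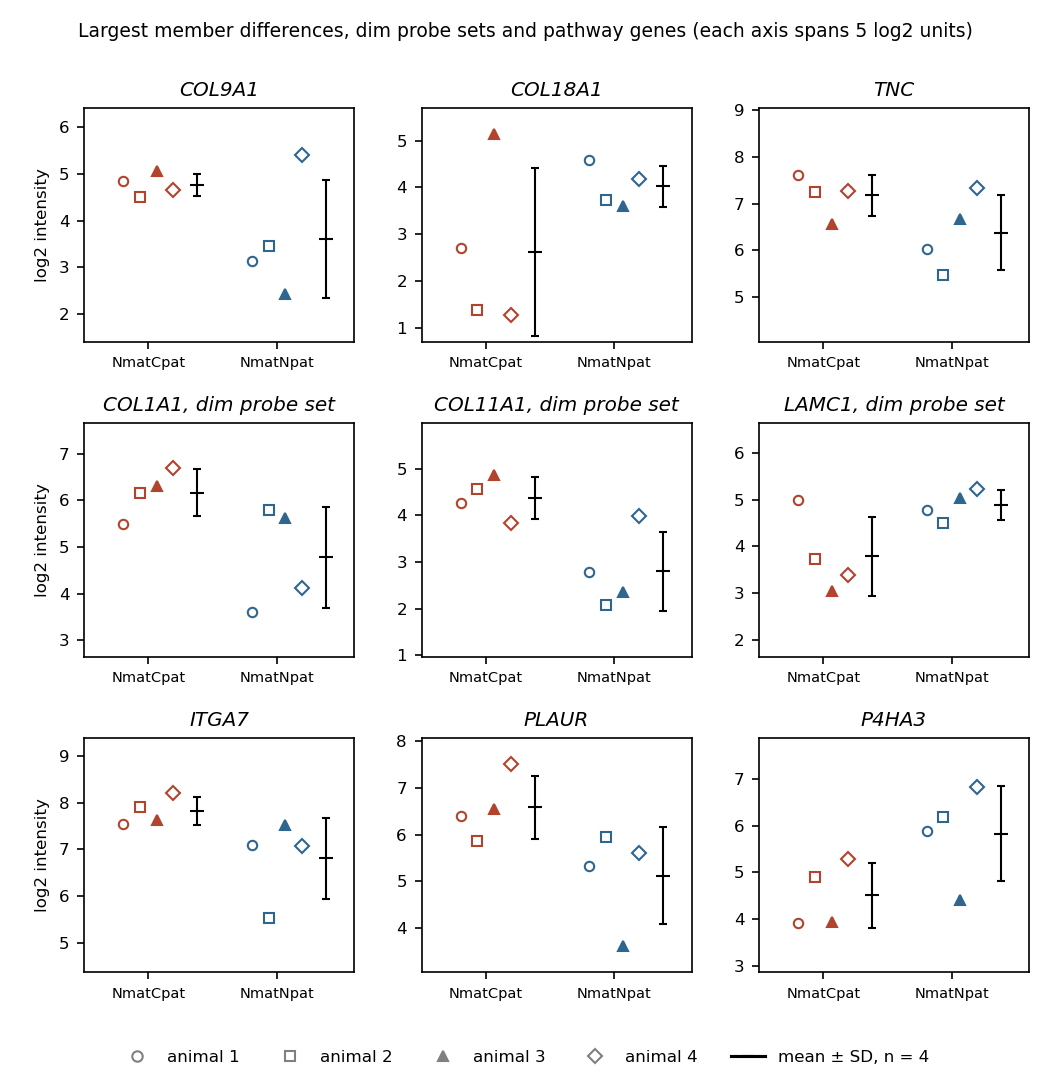
Log2 intensity in each lamb (symbols, animal 3 filled) with the mean ± SD of each genotype (n = 4) for the matrix genes with the largest differences (top row), the 3 dim probe sets past P and fold (middle row) and the 3 called pathway genes (bottom row); every axis spans 5 log2 units. Only ITGA7 has no overlap between the genotypes, with 7.54 against 7.52 at the border.

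The signal and protein lists held no call with the settings used here. All 13 TGF-beta and growth factor genes overlapped between genotypes, 10 differences were above 0 and the median was 0.14. The smallest p was that of TGFBR1, the type I TGF-beta receptor, with 6.26 ± 0.30 (SD, n = 4) against 5.92 ± 0.32 (SD, n = 4), a difference of 0.34 (standard error 0.23). Among 30 other matrix proteins, 15 differences were above 0 and 15 below. SPOCK2, a testican proteoglycan that nerve tissue also makes, had the smallest p. It read 10.56 in NmatNpat animal 1 and 7.17 to 8.65 in the other lambs, a difference of -1.18 (standard error 0.56), and without NmatNpat animal 1 it was -0.62. SPOCK2 was called with a robust trended prior, with 16 added before taking logs and when dim probe sets were left out (limma, adjusted p = 0.97, 0.97 and 0.91). The part of that lamb's nerve transcripts in the SPOCK2 reading was not tested. The pattern of the lambs numbered 3 was also present in these lists, with both highest in 18 of the 30 other matrix proteins (60.0%), 8 of 23 collagen synthesis genes (34.8%), 6 of 13 growth factor genes (46.2%), 8 of 23 receptors (34.8%) and 4 of 24 turnover genes (16.7%).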

How the data were processed

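Each of the 8 lambs, 4 NmatCpat and 4 NmatNpat, gave 1 Affymetrix Bovine Genome array of perirenal fat. The authors made the deposited intensity values with MAS5, whose version the sources used here do not give, and the methods then name a background correction and a quantile normalization. The deposited values are linear and their columns did not share quantiles. After 112 of 24128 probe sets were left out as controls, log2 was therefore taken and the arrays were quantile-normalized. The number of arrays limits the precision.

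All 24016 bovine probe sets entered a single limma 3.58.1 fit in R 4.3.3 without covariates, and p was adjusted over all of them by Benjamini-Hochberg. Calls used the methods' thresholds, a P no higher than 0.05 and a change of more than 1.5-fold. For single values a two-sided exact permutation test enumerated the 70 ways to split the lambs, with a smallest p of 0.029. The symbols were those of an old platform annotation: 13292 probe sets carried 1 symbol, 86 several and 10638 none. Sheep assembly ARS-UI_Ramb_v3.0 served for neighbouring genes only, and 49 of 50 members were found in it by symbol. Protein and promoter sequences were not used here.

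The members and the lists of pathway and marker genes were chosen with earlier results of these data known. Genes named were 30 members set by symbol, of which 3 were not measured, members with a probe set past P and fold, the smallest p of each role and pathway list, and pathway genes past both thresholds, which gave 37 measured genes. Others, marker genes aside, were chosen after their values were seen. Results were recomputed with plain variances, with a robust trended prior and with weights per array. They were also recomputed after centring each array on its median, after cyclic loess and with 16 added before taking logs. Other runs dropped dim or cross-hybridizing probe sets, took the animal number as a block, averaged a gene's probe sets, used no fold threshold, or left out each lamb or the arrays with nerve and muscle transcripts. The fits without both lambs numbered 3, and without both lambs with mesothelium transcripts, were added after seeing the data. The fit was tested on simulated data.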

Additional observations from a re-analysis of the deposited data

Results flagged for a closer look

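A few collagen readings lay far from the other 3 lambs of their genotype, by a gap that took up most of the genotype's range. COL11A2, a fibrillar collagen of cartilage, read 2.95 in NmatCpat animal 2 and 4.11 to 4.18 in the other NmatCpat lambs. COL4A4, a type IV collagen chain, also read 2.95 in NmatCpat animal 2, against 5.88 to 6.06 in the others. Its other probe set read 4.73, 4.29, 4.59 and 4.55 in the NmatCpat lambs, without such a gap. COL13A1, a transmembrane collagen, read 4.95 in NmatCpat animal 1 and 6.60 to 6.88 in the others. COL17A1, a collagen of epithelial attachment, read 5.14 in NmatNpat animal 2 and 5.81 to 5.94 in the others. In all, 138 values or list means were examined within a genotype and 4 stood apart in this way, while chance alone would set apart about 1 in 20.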

How the results depend on the processing

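Across 22 alternatives no member passed an adjusted p under 0.05, and the members' median difference stayed between -0.12 and 0.18. With each lamb left out in turn, 0 to 2 members were called and 0 to 1 did not overlap, and 0 to 5 pathway genes were called where 3 were called with all lambs. The same fits called 2.88% to 3.40% of all genes, and 5.10% to 6.13% did not overlap. The members were COL18A1 without NmatCpat animal 3, and COL9A1 and TNC without NmatNpat animal 4. The members without overlap were COL10A1, COL18A1, NID1, COL17A1, LUM and COL9A1, each without a single lamb. Pathway calls numbered 0 without NmatCpat animal 1, 1 without NmatCpat animal 2 or 3 or NmatNpat animal 1, and 5 without NmatNpat animal 3. The model without moderated variances called 0 pathway genes, where 2.03% of all genes were called. With array weights P4HA3 was not called, averaged probe sets lost ITGA7, and a robust trended prior, 16 added before taking logs and the bright probe sets alone each added SPOCK2. Without NmatNpat animal 1 and NmatCpat animal 4 no member was called, where 2.98% of all genes were. LAMB1 and NID1, 2 of 50 members, did not overlap in that fit, against 8.84% of all genes. That fit also lost the 3 pathway calls, while CTSL and MMP15 were called. Without both lambs numbered 3, 1 member was called and 2 did not overlap, against 3.34% and 9.86% of all genes. Without NmatNpat animal 4 and NmatCpat animal 1, 2 members were called (COL9A1 and TNC), where 3.44% of all genes were. COL9A1 and COL10A1, 2 of 50 members, did not overlap in that fit, against 10.8% of all genes. The 3 pathway calls were lost in it, while ADAM12 and SMOC2 were called. The fits without both lambs numbered 3 and without NmatNpat animal 4 and NmatCpat animal 1 were chosen after seeing the data. The count of members highest in both lambs numbered 3 was 18 to 21, against 21, under the settings that kept all lambs.

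Of 40 named differences, 20 changed sign in some alternative, and none of those 20 was called. Array weights gave -0.0072 for COL4A1, -0.038 for POSTN and -0.0040 for SPARC, and cyclic loess gave -2.6e-05 for SPARC. Median-centred arrays gave 0.012 for COL3A1 and 0.020 for FBN1. With the probe sets left out whose name marks cross-hybridization, LAMC1 differed by 0.042. Without NmatNpat animal 1 and NmatCpat animal 4 the values were -0.17 for COL1A1, -0.20 for COL4A1, -0.027 for LOX, -0.12 for MGP, -0.36 for POSTN, -0.14 for SPARC, -0.30 for THBS1 and -0.22 for TIMP1. Without NmatNpat animal 4 and NmatCpat animal 1 they were 0.013 for COL3A1, 0.058 for COL6A1, 0.14 for FBN1, 0.11 for MMP2, -0.16 for POSTN and -0.00054 for SPARC. Without both lambs numbered 3 they were 0.024 for COL15A1, 0.0088 for COL3A1 and 0.029 for LAMC1. Averaging a gene's probe sets gave -0.28 for COL11A1, 0.10 for COL15A1, 0.029 for COL1A2, 0.014 for COL3A1, -0.092 for COL4A1, 0.20 for COL6A1 and -0.33 for MGP. The cause of these sign changes was not tested.

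With each lamb left out in turn, the differences ran from -0.041 to 0.23 for COL11A1, -0.12 to 0.045 for COL15A1, -0.26 to 0.37 for COL1A1, -0.15 to 0.046 for COL1A2, -0.073 to 0.061 for COL3A1, -0.10 to 0.11 for COL4A1 and -0.29 to 0.19 for COL6A1. They ran from -0.23 to 0.033 for DCN, -0.076 to 0.75 for ELN, -0.24 to 0.12 for FBN1, -0.63 to 0.011 for FN1, -0.040 to 0.58 for LOX, -0.12 to 0.30 for MGP, -0.32 to 0.19 for MMP2 and -0.18 to 0.41 for MMP9. For POSTN the range was -0.21 to 0.38, for SPARC -0.15 to 0.18, for THBS1 -0.27 to 0.27 and for TIMP1 -0.053 to 0.58.

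Over all probe sets the deviations of same-numbered lambs had small correlations (0.04, 0.01, 0.05 and -0.01 for numbers 1 to 4). Between lambs of different numbers the correlations ran from -0.058 to 0.016, below those of numbers 1 and 3. The labels give no link, and the number was not taken as a pairing. With the animal number as a replicate block, ITGA7 (1.01, limma, adjusted p = 0.94) and the dim LAMC1 probe set (-1.09) were no longer called. No other named call changed. In that fit 0 members and 2 pathway genes were called, where 3.30% of all genes were. Dim probe sets were the least precise: the median SD within a genotype was 1.01 in the dimmest 25% of probe sets and 0.23 in the brightest.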
